A study of Danio rerio with 18 samples.

Results

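Most of the genes examined here encode plasma proteins that zebrafish embryos make in the liver or in the yolk syncytial layer, the cell layer that covers the yolk. The members were 10 genes chosen by name: apoa1a, apoeb, rbp4, tfa, cp, fabp10a, hp, itih2, c3a.1 and cfb. Among them fabp10a encodes a protein of the hepatocyte itself and not a plasma protein. Their probe sets were found through the descriptions and gene numbers that came with the deposited tables, and a probe set here is the group of probes that reports 1 transcript on the array. The 10 genes had 15 probe sets of the 15502 on the array that are not array controls. Of these, 14 were bright enough on average to be tested, and the fifteenth, 1 of the 4 probe sets of tfa, lay below the cut-off at a mean of -1.96.

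The study compared zebrafish embryos of the AB strain whose heart does not beat with embryos whose heart does. Embryos were injected at the one-cell stage with a morpholino, an antisense oligonucleotide that blocks a chosen transcript, directed against cardiac troponin T2 (tnnt2) or with a control. The labels call the control samples wild type AB and the design text speaks of a morpholino control, and they are called control embryos here. Total RNA of whole embryos was collected at 36, 48 and 60 h after fertilisation and put on Affymetrix zebrafish arrays, with 3 arrays for each of the 6 groups and 18 in all. A protocol in the labels gives 32 h where the sample titles give 36, and the titles are followed. Each RNA sample came from a pool of embryos. The labels do not tell whether the pools of a group were laid by different parents, so the p-values below measure the spread between these RNA samples.

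In the zebrafish embryo the yolk syncytial layer packages yolk lipid into lipoproteins and releases them, together with carrier proteins, into the blood before the liver takes over. Hepatocytes then become the main source of transferrin, ceruloplasmin, haptoglobin, the heavy chains of inter-alpha-trypsin inhibitor and the complement proteins. Morphants for tnnt2 lack contraction and so lack blood flow, but zebrafish embryos of this age live on oxygen taken up by diffusion. Because the RNA came from whole embryos, fewer cells of a type and less RNA per cell cannot be told apart, and liver and yolk cannot be separated.

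Levels are log2 values after quantile normalisation of all arrays. The arrays differed in overall brightness before that step, with medians of the deposited values from 1.19 to 3.86. The dimmest were control array 2 at 60 h, at 1.19, and control array 1 at 36 h, at 1.48. Values with and without these arrays are given where a result rests on them. A probe set is said to have risen or fallen where limma, fitted to all 18 arrays and 11626 probe sets, gave an adjusted p (Benjamini-Hochberg) under 0.05. The RNA of the targeted gene, tnnt2a, differed between morphant and control embryos by -0.02 at 36 h, -0.02 at 48 h and -0.31 at 60 h, with a standard error of 0.47 each time and adjusted p of 0.992, 0.999 and 0.745 in limma. A morpholino need not lower its target's RNA, so this level checks no label.

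**Figure D1:**
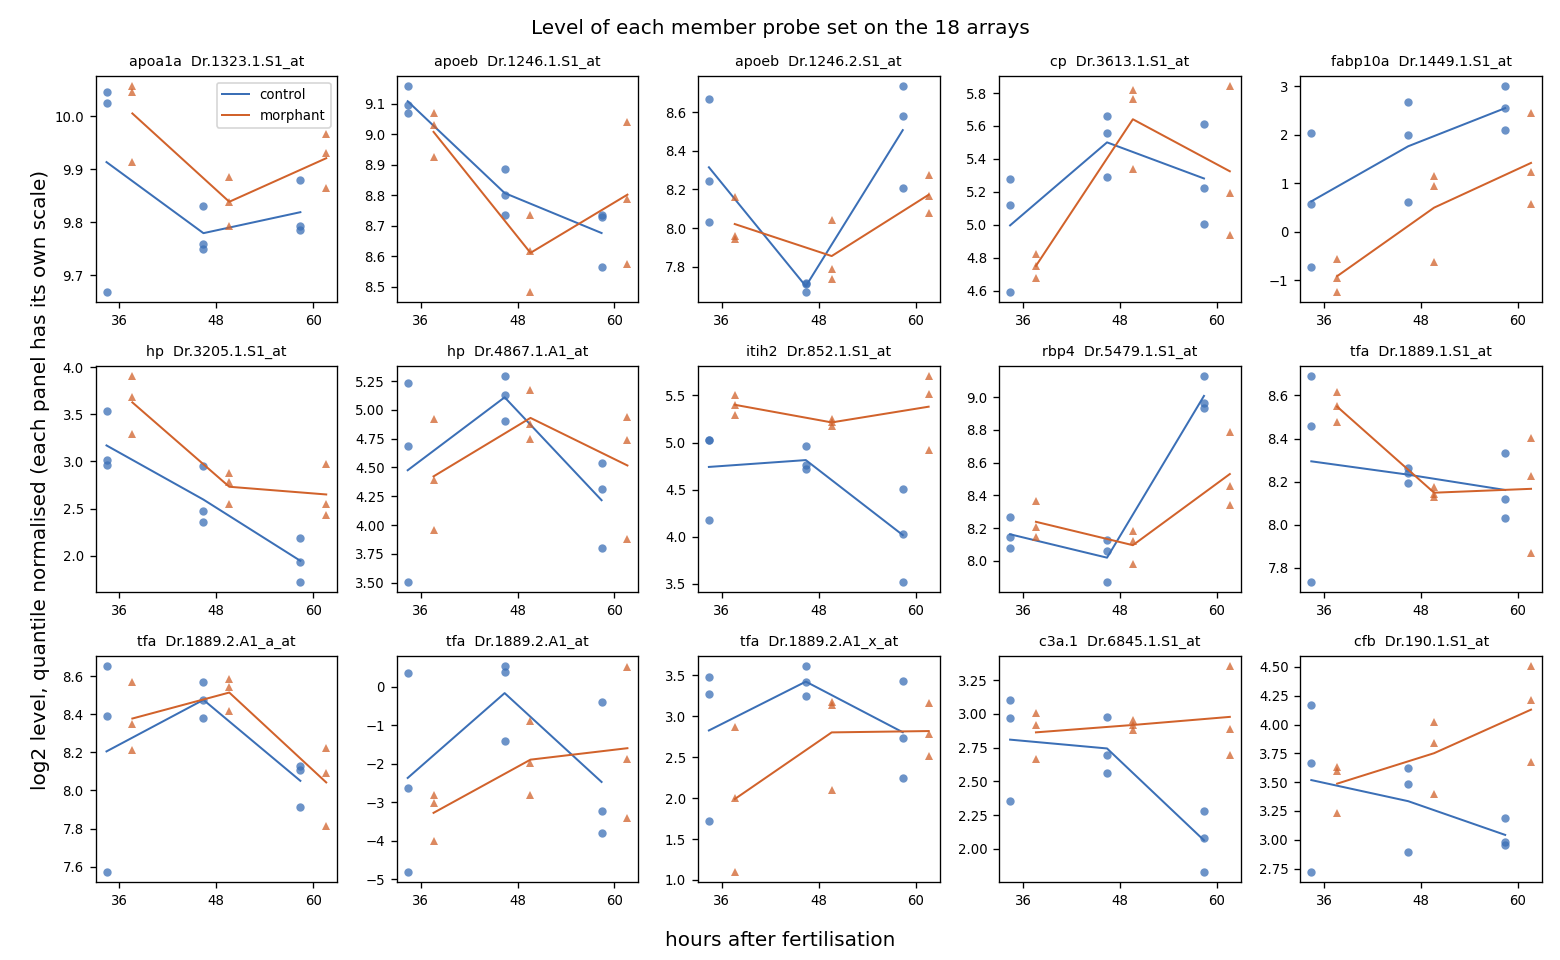
Log2 level of each of the 15 member probe sets against hours after fertilisation, with 1 point for each array, circles for control embryos and triangles for tnnt2 morphants, and lines through the means of 3 arrays. The scale differs between panels: itih2 in morphants lies above controls at each time, rbp4 in controls climbs at 60 h, and apoa1a stays between 9.67 and 10.06.

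Across the members, 1 gene rose in the embryos without a heartbeat and none fell: 1 of 14 probe sets was called at 60 h, against 0.920% of all tested probe sets, and 1 of 14 in the average of the times, against 4.81%. That gene was itih2, a heavy chain of inter-alpha-trypsin inhibitor that is carried in plasma and binds hyaluronan in the extracellular matrix. The complement genes c3a.1 and cfb and 1 of the 2 haptoglobin probe sets also lay higher in every morphant array than in every control array at 60 h, and rbp4 lay lower, but none of these passed the threshold, and 20.2% of all tested probe sets had groups apart at that time. The lipoprotein genes apoa1a and apoeb, transferrin (tfa) and ceruloplasmin (cp) did not pass at any time.

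The level of itih2 in control embryos was 4.18, 5.03 and 5.02 at 36 h, 4.72, 4.76 and 4.96 at 48 h and 4.02, 3.52 and 4.51 at 60 h. In morphants it was 5.51, 5.30 and 5.40 at 36 h, 5.18, 5.21 and 5.25 at 48 h and 4.92, 5.51 and 5.70 at 60 h. The groups did not overlap at any of the 3 times, and the gap was widest at 60 h, where the control arrays were at their lowest. At 60 h the morphant mean was 5.38 ± 0.41 (SD, n = 3) against 4.02 ± 0.50 (SD, n = 3) in controls. That is 1.36 ± 0.25 (SE) on the log2 scale or 2.57-fold higher, with an adjusted p of 0.020 in limma.

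At 36 h the difference for itih2 was 0.66 ± 0.25 (SE), with an adjusted p of 0.30 in limma, and it was 0.37 without control array 1. At 48 h it was 0.40 ± 0.25 (SE), with an adjusted p of 0.71. Averaged over the 3 times, itih2 was 0.81 ± 0.15 (SE) or 1.75-fold higher in morphants, with an adjusted p of 0.0045 in limma. This average passed the threshold whichever of the 18 arrays was left out, at differences from 0.70 to 0.89. The call at 60 h alone was less firm: it was lost without control array 1 (adjusted p = 0.060), control array 2 (0.10), morphant array 2 (0.13) or morphant array 3 (0.10), in limma on 17 arrays. The differences without these arrays ran from 1.11 to 1.36, and the call was kept without either of the other two.

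On both of the dimmest arrays itih2 was at the lowest control value of its time, 4.18 on control array 1 at 36 h and 3.52 on control array 2 at 60 h. With both left out, the difference was 0.37 at 36 h (adjusted p = 0.72 in limma), 1.09 at 60 h (adjusted p = 0.012 in limma) and 0.62 as the average of the times (adjusted p = 0.0033). The authors' deposited table gave a log ratio of 1.12 for itih2 at 60 h, with a probability of a positive ratio of 0.986, and 0.03 and -0.01 at 36 and 48 h. The authors' ratios, here and below, come from the same arrays by another method. They are not independent of the limma values and need not equal a difference of means. Whether the size of the morphant difference changed with time was not shown, since the F-test of that change gave an adjusted p of 0.63 in limma for itih2.

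**Figure D2:**
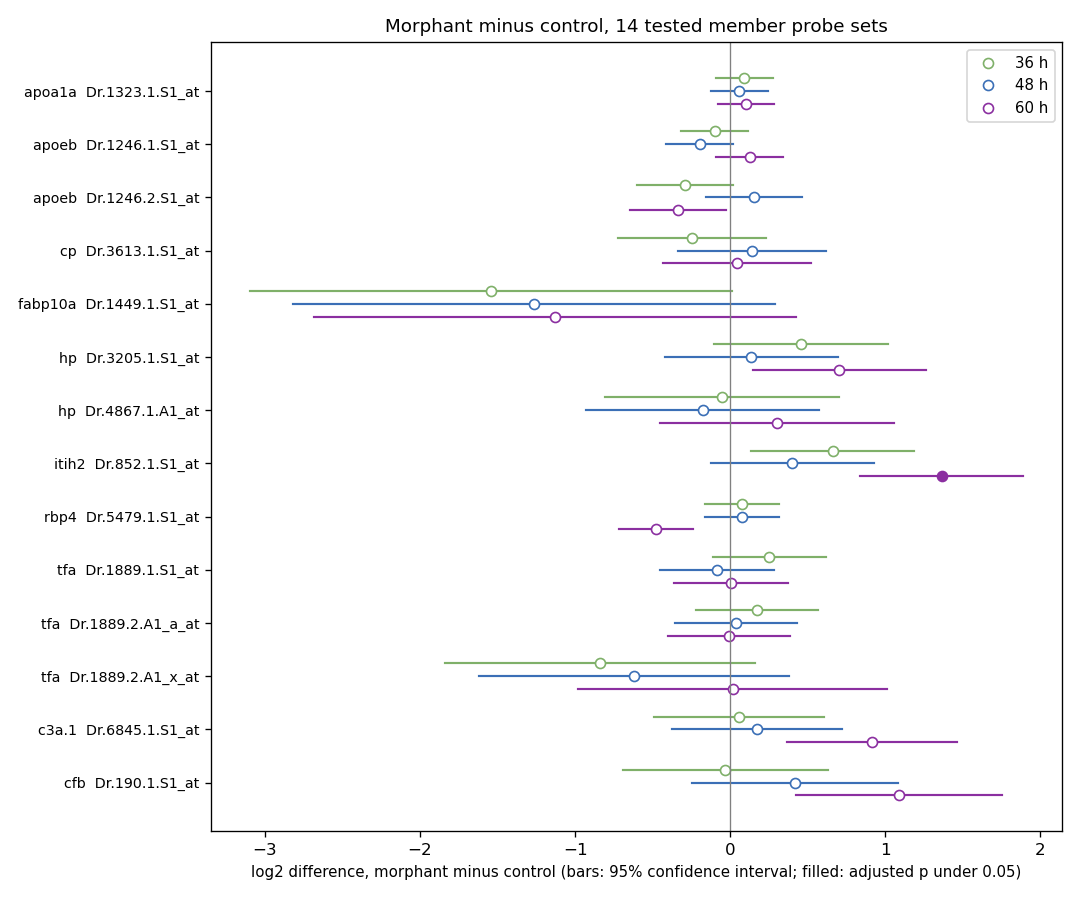
Log2 difference, morphant minus control, for the 14 tested member probe sets at 36, 48 and 60 h, with 95% confidence intervals from limma and filled points where the adjusted p was under 0.05. The only filled point is itih2 at 60 h, at 1.36, and the intervals of fabp10a are the widest.

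Counts of calls among the members were set beside the share of all probe sets called in the same comparison. The members were chosen with earlier results of these data known. These counts, and those of groups apart below, are therefore descriptions and not tests of the members as a set. At 36 h none of the 14 was called, where 0.181% of all tested probe sets were, and 1 of the 14 had an unadjusted p under 0.05, against 13.2% of all. At 48 h none was called, against 0.568% of all, and none had an unadjusted p under 0.05, against 10.3%. At 60 h 6 of the 14 had an unadjusted p under 0.05, against 17.8% of all, and in the average of the times 5 did, against 26.0%. The median difference of the 14 was 0.01, 0.07 and 0.07 at the 3 times, beside 0.01, 0.01 and -0.00 over all tested probe sets.

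The count of member probe sets whose morphant and control arrays did not overlap was 1 of 14 at 36 h, against 13.9% of all tested probe sets. At 48 h it was 4 of 14, 2 higher and 2 lower, against 24.9% of all, which is near the background. At 60 h it was 5 of 14, against 20.2% of all. Of these 5, the 4 higher in morphants were itih2, c3a.1, cfb and the haptoglobin-related probe set of hp, and the 1 lower was rbp4.

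The complement genes c3a.1 and cfb both stood higher in morphants at 60 h without passing the threshold. C3 is the protein on which all complement pathways converge, and factor B forms the enzyme of the alternative pathway that cleaves it. The level of c3a.1 at 60 h was 1.83, 2.28 and 2.08 in control embryos and 2.69, 2.89 and 3.35 in morphants. The control arrays lay below every morphant array, and the difference of 0.91 ± 0.26 (SE) had an adjusted p of 0.10 in limma. At 36 and 48 h the groups overlapped, with differences of 0.05 and 0.17. Zebrafish have several near-identical C3 genes next to c3a.1, and the probes may not separate them.

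For cfb the 60 h levels were 2.98, 2.96 and 3.19 in control embryos and 3.67, 4.51 and 4.21 in morphants. All 3 controls lay below all 3 morphants, and the difference of 1.09 ± 0.32 (SE), or 2.13-fold, had an adjusted p of 0.11 in limma. At 36 h the controls ran from 2.72 to 4.17 and contained all 3 morphant arrays. At 48 h the difference was 0.42 ± 0.32 (SE) and the groups overlapped. The call for cfb at 60 h was reached only without morphant array 1, at a difference of 1.31 and an adjusted p of 0.045 in limma. The authors' deposited table gave log ratios of 1.08 for c3a.1 and 1.19 for cfb at 60 h, with probabilities of a positive ratio of 0.995 and 0.996.

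Other complement transcripts on the array were looked up by the similarity notes in the deposited descriptions, which name the human protein each sequence resembles. This set was picked after the values had been seen, so its count is a description. It held 10 tested probe sets, and all 10 were higher in morphants at 60 h, with a median difference of 0.81 against -0.00 over all tested probe sets. Of the 10, 4 rose, where 0.680% of all tested probe sets rose, and 8 had morphant arrays above every control array, where 8.89% of all did. These are counts of probe sets and not of genes. The C9-like probe sets, all among the 8, may report the same transcript, so the 10 need not be separate transcripts.

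The largest difference among them was in the C6-like transcript, a member of the pore-forming end of the cascade, whose levels at 60 h were 2.76, 0.46 and 0.97 in controls and 3.61, 3.55 and 3.51 in morphants. It was 2.16 ± 0.47 (SE) higher, with an adjusted p of 0.040 in limma, a call that held in 3 of 6 removals. Of its control arrays, that at 0.46 lay below the cut-off of 0.62 for a mean level and that at 0.97 little above it. Next came the C4-like transcript, from the classical and lectin pathways, at 2.37, 3.00 and 3.07 in controls and 3.80, 4.94 and 4.67 in morphants. It was 1.66 ± 0.32 (SE) higher, with an adjusted p of 0.023, a call that held in 2 of 6 removals. Both also rose in the average of the 3 times, by 1.66 and 0.92, under every removal of a single array.

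A C3-like transcript read 3.66, 3.84 and 4.14 in controls and 4.70, 4.93 and 4.86 in morphants, 0.95 ± 0.22 (SE) higher with an adjusted p of 0.045 in limma. One of the 3 C9-like probe sets was 0.79 ± 0.18 (SE) higher with an adjusted p of 0.045, and the others, which may share its probes, were 0.54 and 0.70 higher without passing. A second C3-like probe set was 0.84 ± 0.74 (SE) higher, with groups that overlapped and an adjusted p of 0.55 in limma. The factor H-related probe set was 1.04 ± 0.31 (SE) higher, with groups apart and an adjusted p of 0.11. The C8 beta-like and factor I-like transcripts differed by 0.17 and 0.29. All 10 differences kept their direction under every scaling tried, and only the removal of morphant array 1 turned 1 of them. How many passed was not stable: the number rising was 1 without control array 1 at 60 h, 0 without control array 2, morphant array 2 or morphant array 3, and 6 without control array 3. It was also 0 without the intensity trend, on the 6 arrays of 60 h alone and on the deposited values, and 2 with median centring. Without both of the dimmest arrays it was 5, at a median difference of 0.84.

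**Figure D3:**
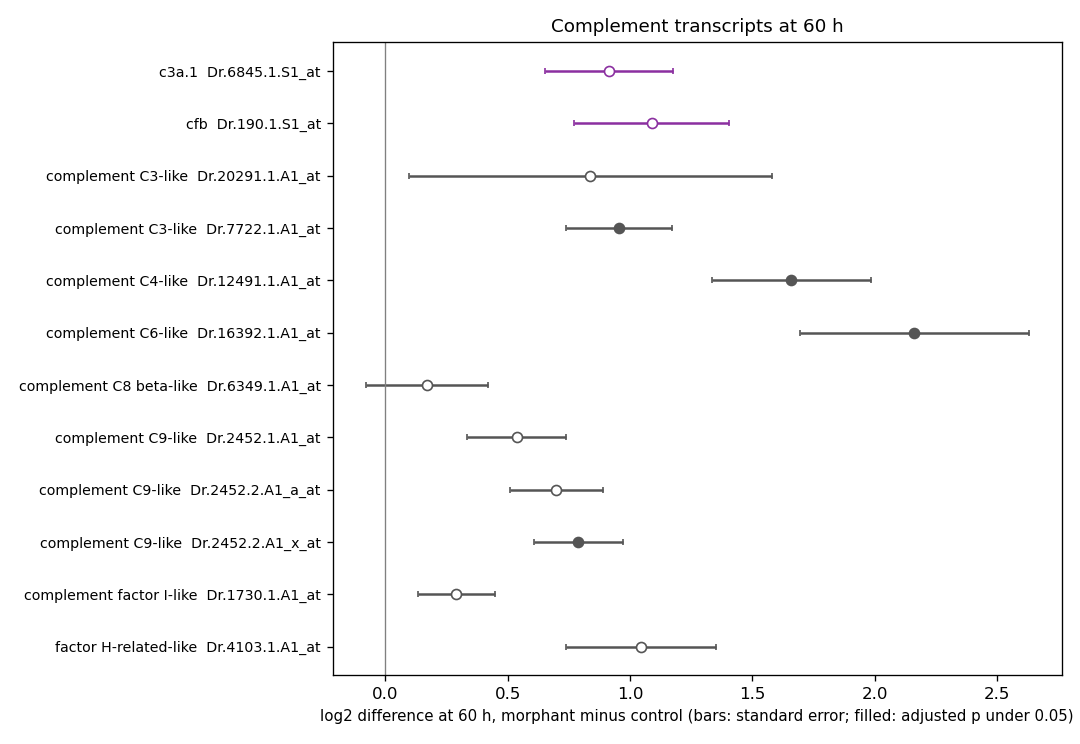
Log2 difference at 60 h, morphant minus control, for the member genes c3a.1 and cfb (purple) and the 10 tested probe sets whose descriptions resemble human complement proteins (grey), with standard errors and filled points where the adjusted p was under 0.05. All 12 points lie to the right of 0, from 0.17 to 2.16.

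Haptoglobin, which binds free haemoglobin in plasma, had 2 probe sets, and only 1 of them had groups apart at 60 h. The haptoglobin-related probe set, so called from its description, read 1.72, 1.93 and 2.19 in control embryos at 60 h and 2.54, 2.43 and 2.97 in morphants. The groups did not overlap, and the difference of 0.70 ± 0.27 (SE) had an adjusted p of 0.20 in limma. The other probe set, tied to hp only through the name of its cDNA clone, read 4.31, 3.80 and 4.54 in controls and 3.88, 4.73 and 4.94 in morphants, which overlap. Its difference was 0.30 ± 0.36 (SE), with an adjusted p of 0.66. Both differences were positive at 60 h. At 36 and 48 h they were 0.46 and 0.14 for the haptoglobin-related probe set and -0.05 and -0.18 for the other, and none passed. The probe sets may report different transcripts, so no single direction is given for hp.

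The retinol carrier rbp4, which brings vitamin A from yolk and liver to the tissues, rose with age in control embryos. In control embryos its probe set read 8.27, 8.08 and 8.14 at 36 h, 7.87, 8.06 and 8.13 at 48 h and 8.96, 8.93 and 9.13 at 60 h. In morphants it read 8.21, 8.15 and 8.36 at 36 h, 7.98, 8.12 and 8.18 at 48 h and 8.34, 8.46 and 8.79 at 60 h. The groups overlapped at 36 and 48 h, and at 60 h all 3 controls lay above all 3 morphants. Controls rose by 0.99 ± 0.11 (SE) between 48 and 60 h (adjusted p = 5.6e-05 in limma) and by 0.85 ± 0.11 over the whole interval (adjusted p = 6.1e-05).

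At 60 h rbp4 was 0.48 ± 0.11 (SE) lower in morphants, with a morphant mean of 8.53 ± 0.23 (SD, n = 3) against 9.01 ± 0.11 (SD, n = 3). The adjusted p of this difference was 0.051 in limma, just outside the threshold. It ran from 0.044 without morphant array 3 to 0.24 with another array left out, and was 0.044 without both of the dimmest arrays. The morphants themselves differed by 0.44 ± 0.11 (SE) between 48 and 60 h, with an adjusted p of 0.070. The test that the change from 36 to 60 h differed between morphants and controls gave -0.56 ± 0.16 (SE), with an unadjusted p of 0.0027 and an adjusted p of 0.9999 in limma. On the deposited values without normalisation, where the control arrays shifted by a median of -1.70 over all probe sets between 48 and 60 h, rbp4 differed by -0.26, so its rise is relative to the other transcripts on the array.

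Among the lipoprotein genes, apoa1a encodes the main protein of high-density lipoprotein and apoeb the zebrafish apolipoprotein E made in the yolk syncytial layer. The level of apoa1a lay between 9.67 and 10.06 on all 18 arrays, and its 6 group means spanned 0.23. Its mean level was at percentile 99.9 of all probe sets, where quantile normalisation can narrow differences between arrays. Before that step its deposited values ran from 9.03 to 10.61. The morphant minus control difference was 0.09, 0.06 and 0.10 at the 3 times, with a standard error of 0.09. At 60 h its 95% confidence interval ran from -0.08 to 0.28.

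For apoeb the 2 probe sets, a brighter and a dimmer one, followed different courses in control embryos. The brighter apoeb probe set read 9.10, 9.16 and 9.07 at 36 h, 8.89, 8.74 and 8.80 at 48 h and 8.73, 8.57 and 8.74 at 60 h. It fell by 0.30 ± 0.10 (SE) to 48 h (adjusted p = 0.044 in limma) and by 0.43 ± 0.10 to 60 h (adjusted p = 0.0071). The dimmer apoeb probe set read 8.67, 8.03 and 8.25 at 36 h, 7.72, 7.67 and 7.71 at 48 h and 8.58, 8.74 and 8.21 at 60 h. It fell by 0.62 ± 0.15 (SE) to 48 h (adjusted p = 0.0067) and then rose by 0.81 ± 0.15 to 60 h (adjusted p = 0.0013), which left it at about its first level. On the deposited values the second step was -0.36, and the first step of the brighter probe set was 0.19, so these changes too are relative to the other transcripts. The fall of the brighter probe set to 48 h was lost with any 1 of the 6 arrays of that contrast left out, while its fall to 60 h and both steps of the dimmer one kept their calls.

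In morphants the brighter apoeb probe set read 9.07, 8.92 and 9.03 at 36 h, 8.74, 8.62 and 8.48 at 48 h and 9.04, 8.79 and 8.58 at 60 h. It fell by 0.40 ± 0.10 (SE) to 48 h, with an adjusted p of 0.015 in limma, which was lost without morphant array 1 at 36 h or morphant array 3 at 48 h. The dimmer apoeb probe set in morphants stayed between 7.73 and 8.27 on all 9 arrays. Its difference from controls was -0.29, 0.16 and -0.34 at the 3 times, with a standard error of 0.15 and adjusted p of 0.39, 0.87 and 0.25. Neither apoeb probe set passed for morphants against controls.

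Transferrin, the plasma iron carrier encoded by tfa, had 4 probe sets. The brightest pair gave differences between -0.08 and 0.25 across the times, with standard errors of 0.17 and 0.19, and none passed. At 60 h their 95% confidence intervals ran from -0.36 to 0.37 and from -0.40 to 0.39. The third in brightness differed by -0.84, -0.62 and 0.02, with a standard error of 0.48. Ceruloplasmin, a copper-carrying enzyme that oxidises iron, did not pass at any time: cp differed by -0.25, 0.14 and 0.04, with a standard error of 0.23 and a 95% confidence interval from -0.44 to 0.52 at 60 h.

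The level of cp rose in morphants from 36 to 48 h. It read 4.75, 4.82 and 4.67 at 36 h, 5.34, 5.82 and 5.76 at 48 h and 4.94, 5.19 and 5.84 at 60 h. The first step was 0.89 ± 0.23 (SE) or 1.85-fold, with an adjusted p of 0.014 in limma. That call was lost without morphant array 2 or morphant array 3 at 48 h (adjusted p of 0.067 and 0.057). From 48 to 60 h the difference was -0.32 ± 0.23 (SE), and over the whole interval it was 0.57 ± 0.23 (SE) with an adjusted p of 0.12. In control embryos it read 5.28, 5.12 and 4.59 at 36 h and 5.29, 5.66 and 5.56 at 48 h. There the difference of 0.50 ± 0.23 (SE) had an adjusted p of 0.12.

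The gene fabp10a encodes the fatty-acid-binding protein of hepatocytes and is the usual zebrafish liver marker. Its probe set was dim, with a mean of 0.99 against the cut-off of 0.62. In control embryos it read 0.58, 2.03 and -0.72 at 36 h, from 0.61 to 2.68 at 48 h and 3.00, 2.56 and 2.09 at 60 h. In morphants it read -0.55, -0.95 and -1.24 at 36 h, -0.61, 0.95 and 1.16 at 48 h and 1.24, 0.58 and 2.44 at 60 h. The morphant mean was the lower at each time, with groups that overlapped each time, and both kinds of embryo were highest at 60 h.

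Averaged over the times, fabp10a differed by -1.31 ± 0.43 (SE) in morphants, with an adjusted p of 0.078 in limma. It passed with 1 of the 18 arrays left out, control array 3 at 36 h, at -1.54 and an adjusted p of 0.022. At the single times the differences of -1.54, -1.27 and -1.13 had a standard error of 0.74. From 36 to 60 h its level rose by 2.33 ± 0.74 (SE) in morphants, with an adjusted p of 0.048 that was lost with any 1 of the 6 arrays left out. No fold is given, since the morphant mean at 36 h lay below the cut-off. The authors' deposited table gave log ratios of -3.27 at 36 h, -1.70 at 48 h and -0.01 at 60 h, with probabilities of a positive ratio of 0.0020, 0.018 and 0.45. These ratios come from the same arrays by another method.

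**Figure D4:**
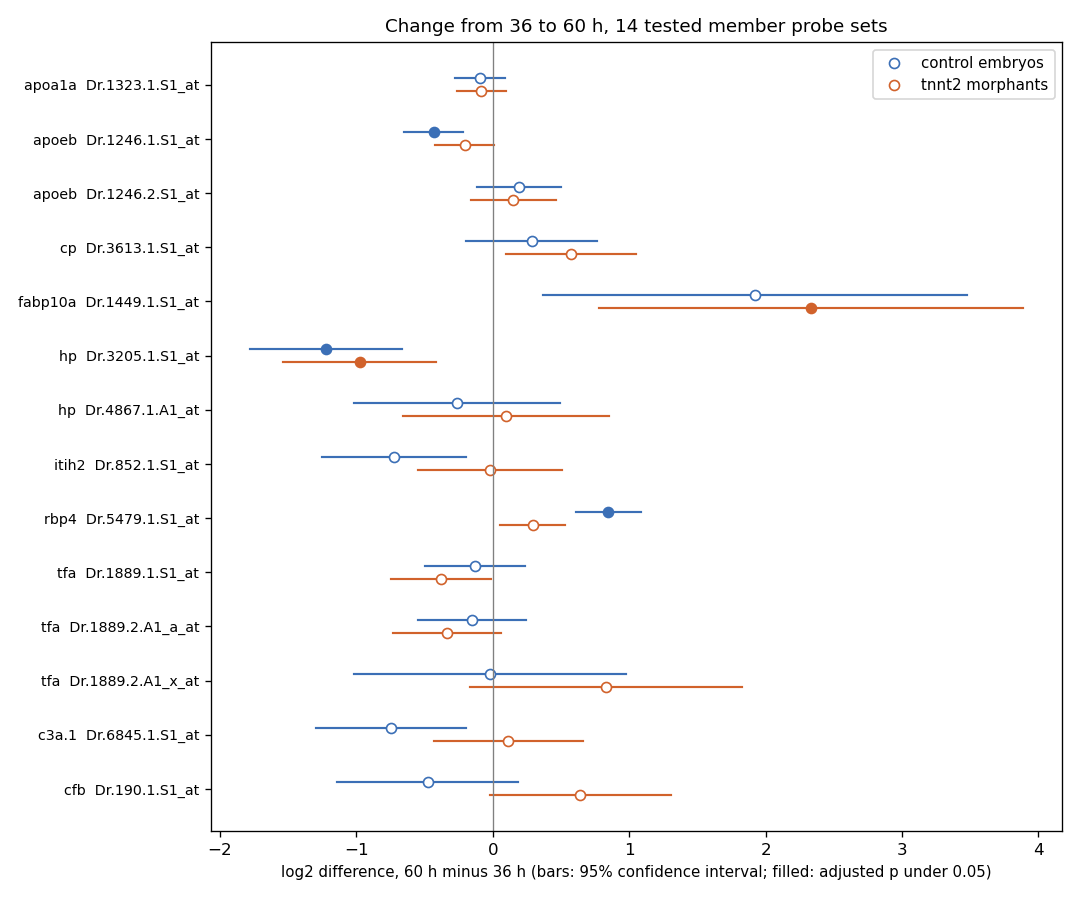
Log2 change from 36 to 60 h for the 14 tested member probe sets in control embryos and tnnt2 morphants, with 95% confidence intervals from limma and filled points where the adjusted p was under 0.05. In controls rbp4 rose while the brighter apoeb probe set and the haptoglobin-related probe set of hp fell, and in morphants fabp10a rose and that hp probe set fell.

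From 36 to 60 h 3 of the 14 member probe sets changed in control embryos. Of these 1 rose, against 9.57% of all tested probe sets, and 2 fell, against 8.40%. In morphants 2 of 14 changed, against 11.8% of all. The haptoglobin-related probe set of hp fell in both. In control embryos it read 2.96, 3.53 and 3.02 at 36 h and 1.72, 1.93 and 2.19 at 60 h, and fell by 1.22 ± 0.27 (SE), with an adjusted p of 0.0037 in limma. In morphants it read 3.90, 3.68 and 3.29 at 36 h and 2.54, 2.43 and 2.97 at 60 h, and fell by 0.98 ± 0.27 (SE), with an adjusted p of 0.021, a call lost in 4 of 6 removals of an array. The count in controls became 9 of 14 without control array 1 at 36 h, where 3133 probe sets of the array were called in place of 2090, and 5 of 14 without both of the dimmest arrays.

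By step, 2 of 14 changed in controls from 36 to 48 h, against 22.6% of all, and 3 of 14 from 48 to 60 h, against 26.4%. The second step held the rise of rbp4 and of the dimmer apoeb probe set and the fall of itih2, by 0.80 ± 0.25 (SE) with an adjusted p of 0.026 in limma. That fall of itih2 passed only when control array 3 at 60 h was left out among the 6 single removals. In morphants 3 of 14 changed from 36 to 48 h, against 15.7% of all: the brighter apoeb probe set, the haptoglobin-related probe set of hp and cp. None changed in morphants from 48 to 60 h, against 0.955% of all, and 3 of the 14 had an unadjusted p under 0.05, against 16.1% of all. Morphant and control comparisons at 60 h and the changes up to 60 h use the same 60 h arrays and are not independent.

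Direct tests of whether morphants and controls changed differently with age called no member. The F-test over the 3 times called 0 of 14, against 0.0258% of all, with 2 members under an unadjusted p of 0.05, itih2 and rbp4, against 7.73% of all. The test of the change from 36 to 60 h called 0 of 14, against 0.00860% of all, with 3 members under an unadjusted p of 0.05, against 3.52% of all. These were rbp4, c3a.1 at 0.86 ± 0.37 (SE) and cfb at 1.12 ± 0.45 (SE).

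Wider lists of plasma protein and liver genes gave few further calls for morphants against controls. Of all tested probe sets 0.181%, 0.568% and 0.920% were called at 36, 48 and 60 h, and 4.81% in the average of the times. These shares are the background for each count in the lists below. Among plasma carriers, both probe sets of igfbp1a, a binding protein for insulin-like growth factors secreted by the liver, rose in morphants. One igfbp1a probe set read 4.62, 5.08 and 5.01 in controls and 6.13, 6.58 and 6.63 in morphants at 48 h, and 4.74, 4.60 and 4.90 against 5.95, 6.36 and 6.89 at 60 h. The groups were apart at both times, by 1.55 ± 0.26 (SE) at 48 h (adjusted p = 0.0084 in limma) and 1.66 ± 0.26 at 60 h (adjusted p = 0.0090). These calls held in 4 of 6 and 5 of 6 removals of a single array. The other igfbp1a probe set was 2.98-fold and 2.83-fold higher at 48 and 60 h (adjusted p of 0.017 and 0.023 in limma), and each of its calls held in 2 of 6 removals. No other of the 8 tested probe sets of that list was called at a single time, and rbp2a, a cellular retinol-binding protein, fell by 0.91 in the average of the times (adjusted p = 0.0019).

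Among hepatocyte enzymes and factors, 1 of 21 tested probe sets rose at 48 h and 1 at 60 h. Of all tested probe sets 0.568% and 0.920% were called at these times. In both cases the probe set was that of gnmt, which uses the methyl donor of the cell to methylate glycine. It read 2.36, 1.97 and 1.34 in controls and 4.41, 4.44 and 4.08 in morphants at 48 h, and 3.37, 3.45 and 3.56 against 5.54, 5.48 and 5.26 at 60 h. The differences of 2.42 and 1.97 had adjusted p of 0.00076 and 0.0065 in limma and kept their calls whichever of their arrays was left out. In the average of the times hgd, an enzyme of tyrosine breakdown, fell by 0.67 (adjusted p = 0.012). The 21 had a median difference of 0.13 at 60 h.

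None of the 3 tested probe sets of plasma protease inhibitors passed at a single time. Among them itih3a.1 encodes a heavy chain of the same family as itih2. It fell by 1.86 in the average of the times (adjusted p = 0.027 in limma). That call held in 11 of 18 removals of an array, and its morphant mean at 36 h, -0.46, lay below the cut-off. A second transcript that resembles this heavy chain rose by 0.90 in the average (adjusted p = 0.027), a call that held in 12 of 18 removals. Of 4 tested probe sets for fibrinogen and clotting factors none was called for morphants against controls at any time or in the average. Of 6 for complement and acute phase proteins none was called at a single time, and that of c8b among them is the C8 beta-like probe set above. In the average fth1a, a ferritin gene, rose by 0.17 (adjusted p = 0.043 in limma), a call kept in 5 of 18 removals. Beyond the complement transcripts above, no other of the 34 tested probe sets that resemble human plasma or yolk proteins was called in morphants at 36, 48 or 60 h. A fibrinogen alpha-like probe set was 0.46 ± 0.11 (SE) higher at 60 h, with groups apart and an adjusted p of 0.052 in limma. It differed by -0.11 at 36 h and 0.13 at 48 h. In the average of the times 1 probe set that resembles apolipoprotein A-IV fell by 0.62 (adjusted p = 0.023 in limma), a call kept in 13 of 18 removals. At 60 h it was 1.03 lower (adjusted p = 0.064). The others that resemble this protein were 0.49, 0.58 and 0.54 higher at 60 h without passing.

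Markers of other tissues that could carry these transcripts were tested in the same way. Of all tested probe sets 0.181% were called at 36 h, 0.920% at 60 h and 4.81% in the average of the times. At 60 h none of 3 probe sets of gut epithelium was called, with a median difference of -0.46, none of 3 of exocrine pancreas, with a median of -1.03, and none of 4 of macrophages and neutrophils, with a median of -0.09. Of 23 for hatching gland, epidermis and notochord 1 rose, a probe set of the keratin cyt1 by 0.42, which was -0.06 with median centring and kept its call in 2 of 6 removals of an array. At 36 h another cyt1 probe set rose by 1.38 (adjusted p = 0.038 in limma), a call kept in 3 of 6 removals. In the average of the times these cyt1 probe sets rose by 0.30 and 0.75 (adjusted p of 0.0011 and 0.012), and neither passed with median centring or on the deposited values. Of the 4 macrophage and neutrophil probe sets 1 rose in that average, mmp9, a matrix-degrading enzyme, by 1.08 (adjusted p = 0.030), a call kept in 7 of 18 removals. The median of the 4 was -0.14, and none of gut epithelium or exocrine pancreas was called. Their part in the results above was not tested.

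The level of each member, taken from its brightest probe set, was also set against the 3303 other named probe sets across the 18 arrays by Pearson's r, as a description, since all arrays share the groups and the normalisation. The transcript most like itih2 was myl7, a myosin light chain of heart muscle, at r = 0.95. For cfb it was cfhl4, a factor H-like gene, at r = 0.82, and its probe set is the factor H-related one above. For rbp4 it was pdgfrl at 0.90, for apoa1a sptb at 0.91 and for the brighter apoeb probe set glula at 0.91. The nearest for tfa was ybx1 at 0.91, for the hp probe set tied to the gene through its clone name igf2bp2b at 0.88, for c3a.1 gdpd3a at 0.85, for fabp10a insyn1 at 0.84 and for cp krt5 at 0.81. Within the members, itih2 ran closest to cfb at 0.72 and c3a.1 at 0.65, and the brighter apoeb probe set ran opposite to cp at -0.79.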

How the data were processed

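Whole-embryo RNA of 18 zebrafish samples was measured on Affymetrix arrays, 3 arrays in each of 6 groups. The deposited values are log2 estimates of probe set level, taken as base 2 since the base is not stated, and are made with mmgMOS per the file headers. The authors' deposited tables also give a log2 ratio at each time and the probability that it is positive, a fraction between 0 and 1.

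From the deposited values, quantile normalisation was applied to 15502 probe sets of 15617, without 115 array controls. Probe sets whose mean lay under the lowest 25% (0.62) were not tested, which left 11626. limma 3.58.1 in R 4.3.3 fitted 6 group means with a trend of the variance on level (12 residual degrees of freedom, 6.24 from the prior), with Benjamini-Hochberg adjustment over all tested probe sets. The fit was tested on simulated data. Alternatives were other scalings, no filter, no trend, a replicate block, single times and the removal of arrays.

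Names came from the deposited descriptions and lists and a RefSeq gene table. They covered 4145 probe sets. The gene column of 1 deposited list, the morphant 60 h sheet, was not used, since it matched the descriptions for 0 of 22 probe sets checked. All 10 members and all their probe sets are named. From the wider lists up to 4 called genes are named for each list and direction, in the comparisons of morphants with controls only. Calls in these lists for changes with age, in controls or in morphants, are not reported. The members and lists were chosen with earlier results of these data known, and the similarity labels after the files had been read.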

Additional observations from a re-analysis of the deposited data

How the results depend on the processing

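The average itih2 difference over the times kept its direction and call under every alternative but one, the deposited values without normalisation (0.81, adjusted p = 0.66 in limma); the differences of c3a.1 and cfb at 60 h kept their direction throughout. The number of member probe sets called for morphants against controls at 60 h, 1 in the report, was 0 on the deposited values, 0 without the intensity trend, 0 on the 6 arrays of that time alone, 2 without the 2 dimmest arrays (chosen after seeing the data) and 0 to 2 with single arrays left out. The average went to 0 on the deposited values and 1 to 2 with arrays left out. At 36 and 48 h all alternatives gave 0. The cause of these changes was not tested.

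For the change from 36 to 60 h, the count in controls was 5 without the dimmest arrays and 3 to 9 with single arrays left out. In morphants it was 0 on the deposited values, 1 with median centring, 1 without the filter, 4 without the dimmest arrays and 0 to 3 with single arrays left out. From 36 to 48 h controls gave 1 with median centring, 1 without the filter, 1 without the trend and 1 to 2 with arrays left out, and morphants 0 on the deposited values, 1 with median centring, 5 without the dimmest arrays and 0 to 3 with arrays left out. From 48 to 60 h controls gave 11 on the deposited values, 5 without the dimmest arrays and 2 to 3 with arrays left out. Morphants gave 2 on the deposited values and 2 without the dimmest arrays. On the deposited values all tested probe sets shifted by a median of -1.70 in controls over that step, so the 11 is not read as a result about the members. The share of all probe sets called under each alternative is not given here, so the counts in this section show only how far the member calls depend on processing.

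On the deposited values, where brightness differs between arrays, 8 differences turned. These were rbp4 in controls (-0.26) and morphants (-0.38) from 48 to 60 h and in morphants from 36 to 60 h (-0.26), the dimmer apoeb probe set in controls (-0.36) and morphants (-0.41) from 48 to 60 h, the brighter apoeb probe set (0.19) and the haptoglobin-related probe set of hp (0.55) in controls from 36 to 48 h, and cp in morphants from 36 to 60 h (-0.082). With median centring 1 of the brightest pair of tfa probe sets in controls from 48 to 60 h turned to 0.18 and a cyt1 probe set for morphants against controls at 60 h to -0.056. Over all tested probe sets the deposited values shifted by a median of -1.70 in controls from 48 to 60 h and 0.39 for morphants against controls at 60 h.

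Of 9 pairs of morphant and control arrays with the same time and replicate number, 8 had deviations that correlated above 0.1, up to 0.27, and the other, at 60 h, was at -0.06. Of the 18 arrays 16 correlated best with their own number, a hint from the data and not from the design, so no pairing was assumed. With the replicate block, 2 member probe sets were called at 60 h (itih2 and rbp4, adjusted p of 0.0081 and 0.029), 1 in morphants from 36 to 60 h and 1 from 48 to 60 h. The deposited standard error of single arrays had a median of 1.04 for fabp10a against 0.11 for apoa1a.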
